A study of Sus scrofa with 18 samples.

Results

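miR-193 and miR-365 are small regulatory RNAs from neighbouring hairpins, and their levels and sequence forms were examined in the backfat of pigs with high or low fat deposition. All rows of the deposited count table whose mature name was miR-193a, miR-193b or miR-365, with or without an arm suffix, were taken. This gave 4 of the 240 mature microRNAs (miRNAs) in the table: ssc-miR-365-5p, ssc-miR-365-3p, ssc-miR-193a-5p and ssc-miR-193a-3p, the 5′ and 3′ arms of miR-365 and miR-193a. No row carried the name miR-193b. All 4 were among the 221 miRNAs with enough counts to be tested.

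The tissue came from 18 Italian Large White pigs slaughtered at 233 to 250 days and 150 to 160 kg, kept under the same housing and diet. The high class held 5 castrated males and 4 females, and the low class 4 castrated males and 5 females. The labels give the backfat class of each animal but no fat thickness, and no fat layer or cell type, so a bulk sample of one breed is all that either class represents. Each library held 9601510 to 34588252 counts over distinct sequences. The 4 libraries with the codes AC485 to AC488 (high replicate 9 and low replicates 7, 8 and 9) include the 3 shallowest, and 1 high library stands there against 3 low ones, so calls lost when they are left out are given with the value without them.

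A miRNA is cut from a hairpin, and either arm may be loaded into an Argonaute protein, where bases 2 to 8 from its 5′ end, the seed, pair with target messenger RNAs. The arm that is kept in smaller amount is often called the passenger. The miR-193 and miR-365 hairpins lie beside each other in mammalian genomes and are known from cell culture work as brown fat enriched clusters that favour brown over muscle cell identity, though mice lacking a cluster still form brown fat. In the Sscrofa11.1 gene order of RefSeq, MIR365-2 and MIR193A are neighbours on chromosome 12 with no gene between them, and the second miR-365 gene, MIR365-1, lies on chromosome 3. Deposited reads of miR-365-3p were listed under both miR-365 hairpins, which make the same 3′ arm, and those of miR-365-5p under mir-365-2 only.

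The 4 mature sequences show why each arm counts as a separate regulator. They are written 5′ to 3′ as the deposited table has them, with the seed in capitals.
ssc-miR-365-5p: gAGGGACTttcaggggcagctgt
ssc-miR-365-3p: tAATGCCCctaaaaatccttat
ssc-miR-193a-5p: tGGGTCTTtgcgggcgagatga
ssc-miR-193a-3p: aACTGGCCtacaaagtcccagt
The 4 seeds all differ, and 0 other mature miRNAs of the table share any of them. No read sequence of the 4 was also listed under another miRNA.

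The 3′ arms were the abundant ones. Levels are given as CPM, the counts of a miRNA brought to a common library total, after scaling by TMM, which equalises the bulk of miRNAs, and levels are not corrected for the preferences of ligation. miR-193a-3p averaged 299 ± 149 CPM and miR-365-3p 280 ± 57.1 CPM (SD, n = 18), 78th and 82nd of the 221 miRNAs. These neighbours in the order overlapped over most of their ranges (166 to 824 and 176 to 374 CPM). miR-193a-5p followed at 152 ± 38.4 CPM, 98th, and miR-365-5p stood far lower at 11.8 ± 6.28 CPM, 173rd. miR-365-5p thus rested on 68 to 752 counts per library, against 2065 to 10339 for miR-365-3p.

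The level of miR-365-3p depends on how repeated listings were treated. In the table as a whole the lowest count above 0 was 10 for a sequence listed under 1 hairpin, 5 for one listed under 2 and 3 for one listed under 3, and 72.7% of the values listed under 2 hairpins were even numbers against 51.6% of those listed once. Whether reads were divided over the listings is not given in the sources used here. With the listings of each sequence added up, miR-365-3p averaged 518 ± 119 CPM (SD, n = 18) and ranked 66th. A form read fewer than 10 times in a library appears to be listed at 0, so the sum over forms leaves out some of the reads of a scarce miRNA in a shallow library. This bears on miR-365-5p, of whose 17 forms only 2 were above 0 in all 18 libraries.

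**Figure D1:**
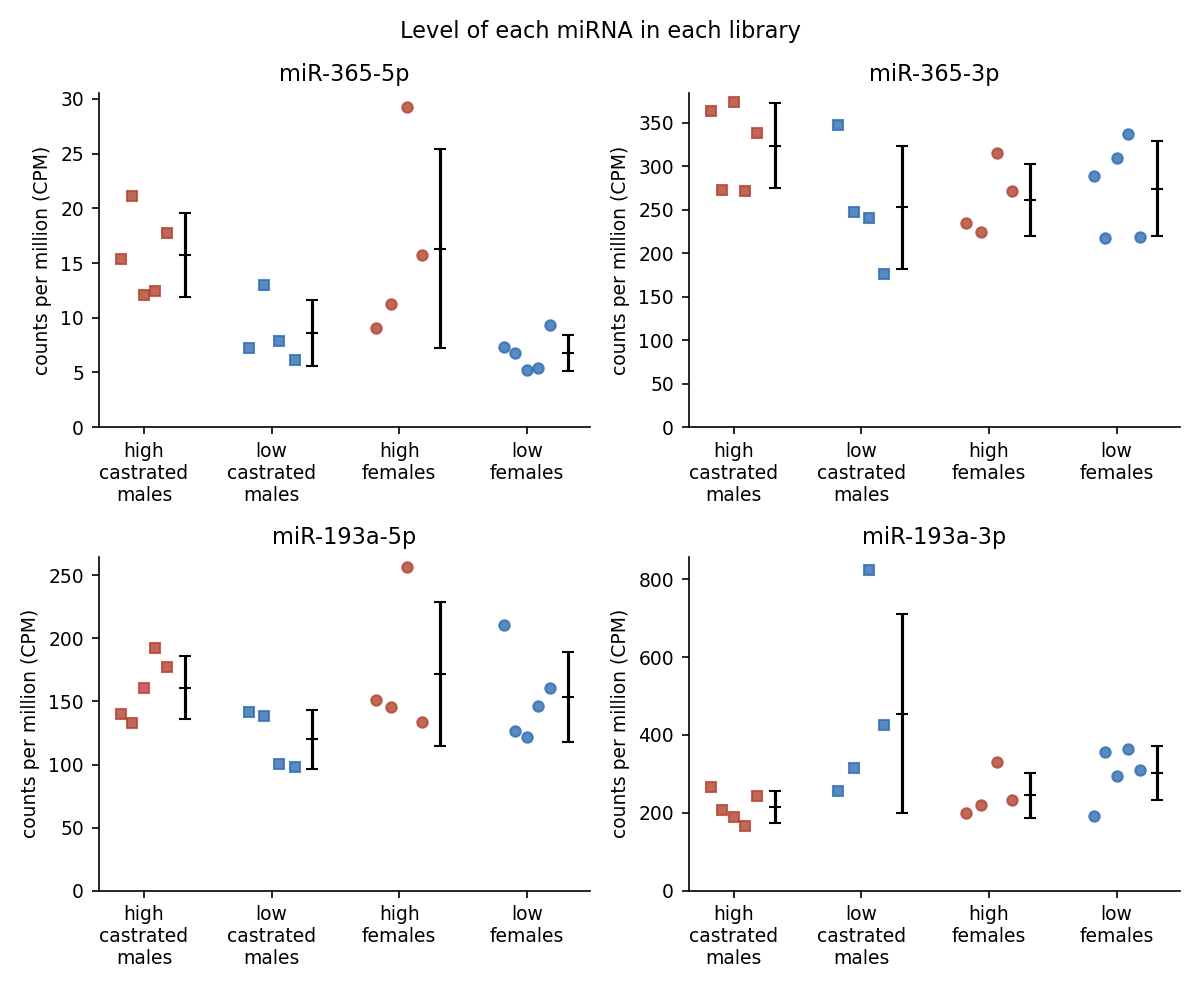
Level of each miRNA in CPM in every library, by backfat class (red, high; blue, low) in castrated males (squares) and females (circles); black bars give the mean and SD of each group. miR-365-5p reached 9.04 to 29.3 CPM in the high class and 5.24 to 12.998 CPM among the low animals, and 1 low-backfat castrated male stood at 824 CPM of miR-193a-3p.

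High and low backfat were compared to ask whether the 4 miRNAs differ with fat deposition. miR-365-5p rose: its lowest, median and highest values were 9.04, 15.3 and 29.3 CPM with high backfat and 5.24, 7.27 and 12.998 CPM with low backfat. All 9 high values lay above the low median and 5 lay above every low value, while 7 low values lay below every high one. Mean levels were 16.0 ± 6.18 and 7.59 ± 2.39 CPM (SD, n = 9 per class). With sex in the model, the edgeR quasi-likelihood fit put the log2 fold change at 1.07 ± 0.23 (SE, adjusted p = 0.0387). The call was lost with limma (1.11, adjusted p = 0.0615) and with age as a term (1.10, edgeR adjusted p = 0.0597). In this fit 8 of 221 miRNAs, 3.62%, passed the threshold of 0.05, 3 higher and 5 lower, and with DESeq2 size factors 1 passed, which was higher. miR-365-5p had the lowest p of the 221.

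The abundant 3′ arm of miR-365 did not pass. miR-365-3p ran from 224 over a median of 273 to 374 CPM with high backfat and from 176 over 248 to 347 CPM with low backfat, and the classes overlapped widely. Its log2 fold change was 0.14 ± 0.15 (SE, edgeR adjusted p = 0.58). Leaving out the AC485 to AC488 libraries gave -0.05, and within the other 3 runs of library codes taken singly it was -0.12, 0.09 and -0.08 against 0.69 within that run.

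miR-193a-3p, known as a suppressor of growth in cultured tumour cells, lay lower in the high class. It ran from 166 over a median of 220 to 329 CPM against 192, 316 and 824 CPM, and 8 of the 9 high values lay below the low median. Its log2 fold change of -0.69 ± 0.21 (SE) did not pass the edgeR test over all miRNAs (adjusted p = 0.0705). It passed with DESeq2's Wald test (adjusted p = 0.0296). Without low replicate 7, the library at 824 CPM, the log2 fold change was -0.45 (adjusted p = 0.129). It passed without high replicate 6, the highest of its class (-0.80, edgeR adjusted p = 0.0306), and without low replicate 1, the lowest of its class (-0.77, adjusted p = 0.0392). miR-193a-5p, the other arm of that hairpin, ran from 133 over 151 to 257 CPM with high and from 98.5 over 139 to 211 CPM with low backfat. It had a log2 fold change of the opposite sign, 0.29 ± 0.15 (SE, edgeR adjusted p = 0.245).

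Both libraries that set the extremes also stood at the end of the range for some, but not all, other markers. Low replicate 7 had the highest summed level of the red blood cell miRNAs (10474 CPM), of the liver miRNA miR-122 (43.1 CPM) and of the epithelial miR-205 (49.5 CPM) among the 18 libraries. It ranked 7th for the endothelial and 10th for the fibroblast miRNAs, and was the shallowest library (9601510 counts). High replicate 6, which had the highest miR-365-5p (29.3 CPM) and miR-193a-5p (257 CPM), had the lowest summed levels of the endothelial miRNAs (11374 CPM) and of the fibroblast miRNAs (10337 CPM). It ranked 6th for the red blood cell and 9th for the skeletal muscle miRNAs. In bulk tissue, fewer cells of a type and less RNA per cell cannot be told apart. With high replicate 6 left out, miR-365-5p still rose, by 0.85 in log2 (edgeR adjusted p = 0.0185). The call of miR-365-5p was lost when the AC485 to AC488 libraries were left out (log2 fold change 1.07, adjusted p = 0.166) and without any 1 of high replicates 1, 3 and 9 or low replicates 5, 6 and 9.

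Within the sexes, the comparison asked whether castrated males and females showed the class difference alike. In castrated males miR-193a-3p fell. It was at 267, 208, 190, 166 and 244 CPM in high replicates 1, 3, 5, 8 and 9 and at 255, 316, 824 and 424 CPM in low replicates 2, 4, 7 and 9. Of the low values, 1 lay inside the range of the high ones and 3 lay above it. The log2 fold change was -1.08 ± 0.28 (SE, edgeR adjusted p = 0.0352), in a contrast that called 9 of 221 miRNAs, 4.07%. The size rested on the libraries of the run AC485 to AC488: without them it was -0.44 (adjusted p = 0.642), and without low replicate 7 alone -0.62 (adjusted p = 0.166). It was also past the threshold neither without any 1 of high replicates 1, 3, 5, 8 and 9 or low replicates 8 and 9, nor when code run entered the model (-0.87, adjusted p = 0.119). Skeletal muscle miRNAs were lower in the same high libraries, at a summed level of 48.3 to 65.6 CPM against 98.3 to 211 CPM, and their part in the value of miR-193a-3p was not tested.

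In females miR-193a-3p was at 198, 220, 329 and 232 CPM in high replicates 2, 4, 6 and 7 and at 192, 356, 293, 365.1 and 309 CPM in low replicates 1, 3, 5, 6 and 8, ranges that overlapped (log2 fold change -0.31 ± 0.29, SE, edgeR adjusted p = 0.671). The difference of the class effect between the sexes did not pass for miR-193a-3p (-0.77 ± 0.40, adjusted p = 0.51), and 0 of 221 miRNAs passed that test in edgeR (25 at an unadjusted p under 0.05), against 3 in DESeq2. For miR-365-5p the log2 fold changes were 0.87 ± 0.33 in castrated males (adjusted p = 0.147) and 1.27 ± 0.32 in females (adjusted p = 0.221), with a difference of -0.40 ± 0.46. The females contrast called 0 of 221 miRNAs in edgeR, with 20 at an unadjusted p under 0.05, and 0 in DESeq2 and limma. miR-365-5p had the lowest p there, and miR-365-3p was near 0 (-0.07 ± 0.20) with a sign that turned under limma and with all listings summed. Averaged over the classes, castrated males and females did not differ past the threshold in any of the 4 miRNAs (log2 fold changes -0.22 to 0.20, adjusted p from 0.628 to 0.856), nor in any of the 221 by edgeR, with 17 at an unadjusted p under 0.05, nor by DESeq2 or limma.

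Ratios between the 4 miRNAs within a library do not depend on library scaling. They were formed from counts plus 0.5 and compared between the classes with exact two-sided permutation tests over 48620 splits. Since the levels of the members were already known to differ, the ratios restate those levels and are no separate evidence. All 6 ratios were compared, and their p-values were adjusted over the ratios of all 24310 pairs of the 221 miRNAs, of which 751, 3.09%, passed. Each sequence was counted once. With repeated listings added up, the counts of miR-365-3p are larger by the same factor in every library. The percentages taken of miR-365-3p would then be smaller and those of miR-365-3p to other miRNAs larger. Their class differences in log2 would stay nearly the same.

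The proportion of miR-365-5p to miR-365-3p was higher in the high class. The 3′ arm pools the reads of both miR-365 hairpins, while the 5′ arm was listed under mir-365-2 only. The ratio therefore does not isolate the use of the arms of a single hairpin. miR-365-5p amounted to 3.23% to 9.30% of the counts of miR-365-3p with high backfat (median 5.02%). With low backfat it reached at most 5.25% (median 3.11%). Of the high libraries 4 lay above every low one. The mean log2 ratio was -4.27 ± 0.48 against -5.14 ± 0.59 (SD, n = 9 per class), a difference of 0.87, or 1.83-fold (exact permutation p = 0.00341, adjusted p = 0.0641). It was positive within each of the 4 runs of library codes (0.52 to 1.69). In females it was 1.21 and in castrated males 0.51 (exact permutation p = 0.0238 and 0.167, where 0.00794 is the smallest possible).

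The miR-193a hairpin leaned the same way. Its 5′ arm amounted to 52.4% to 116% of its 3′ arm with high backfat (median 72.7%) and to 12.2% to 110% with low backfat (median 41.4%). The lowest values were those of low replicates 7 and 9, at 12.2% and 23.2%, and the highest low value was that of low replicate 1. The mean log2 ratio was -0.47 ± 0.34 against -1.34 ± 0.87 (SD, n = 9 each, difference 0.87, exact permutation p = 0.00782, adjusted p = 0.0859). The difference was 1.38 in castrated males and 0.44 in females, and in the first run of library codes, with 2 libraries of each class, it had the other sign (-0.31).

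Across the 43 hairpins with both arms tested, 0 passed after adjustment over these hairpins by the exact permutation test (0%), with 11 at an unadjusted p under 0.05. The adjusted p was 0.0898 for both miR-365 and miR-193a, whose p-values ranked 1st and 3rd of the 43. By the size of the difference in either direction they ranked 6th and 5th, after miR-7137 (-1.54), miR-196b (1.402), miR-493 (1.25) and miR-139 (-1.12), each with an arm under 3 CPM. Of the 43 differences 23 were positive, with a median of 0.04. Arms were paired by name, and the miR-365 ratio has the limit given above.

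**Figure D2:**
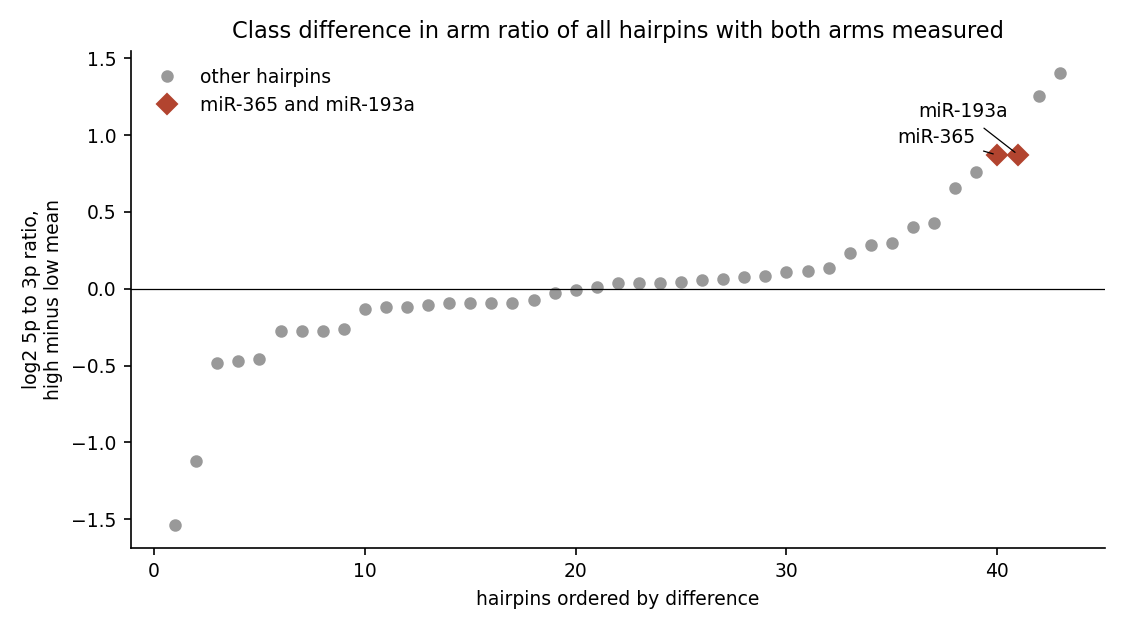
Difference between the mean log2 5p to 3p ratio of the high and the low class for each of the 43 hairpins with both arms measured, ordered from lowest to highest. Red diamonds mark miR-365 and miR-193a, both at 0.87, and grey points the other hairpins.

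The ratio between hairpins separated the classes. miR-365-5p amounted to at least 4.57% of miR-193a-3p in every high library (median 6.77%) and to 0.968% to 4.11% in the low libraries (median 1.90%). All 9 high libraries lay above all 9 low ones, by a narrow margin between high replicate 2 and low replicate 4. The difference in mean log2 ratio was 1.65, or 3.14-fold (-3.89 ± 0.37 against -5.54 ± 0.71, SD, n = 9 each). The exact permutation p of 4.11e-05 is the smallest these splits can give, and the adjusted p was 0.0263. Such a separation occurred in 38 of the 24310 pairs, 0.156%, and this difference ranked 1138th of all pairs by size. The difference was 1.85 in castrated males and 1.44 in females (exact permutation p = 0.00794 and 0.0159), and 0.63, 1.37, 2.17 and 2.17 in the 4 runs of library codes. Without any 1 of low replicates 5, 6, 7 and 9 the adjusted p was 0.0549 to 0.0625, and with the AC485 to AC488 libraries left out the difference was 1.43 (adjusted p = 0.157).

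The other 3 ratios did not pass. miR-365-3p to miR-193a-3p, the abundant arms, differed by 0.78 in log2 (exact permutation p = 0.00954, adjusted p = 0.0928). Its high values ran from 95.6% to 196% and its low values from 29.2% to 150%. miR-365-5p to miR-193a-5p also differed by 0.78 (exact permutation p = 0.00362, adjusted p = 0.065). miR-365-3p to miR-193a-5p differed by -0.09 (exact permutation p = 0.586), with class means of 0.85 ± 0.35 and 0.94 ± 0.35 (SD, n = 9 each). Among all pairs that include it, miR-365-5p passed with 104 of its 220 partners, miR-193a-3p with 15, miR-193a-5p with 1 and miR-365-3p with 0. miR-365-5p separated the classes fully against miR-193a-3p, miR-374b-5p and miR-582, and miR-193a-3p against miR-365-5p and miR-486.

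**Figure D3:**
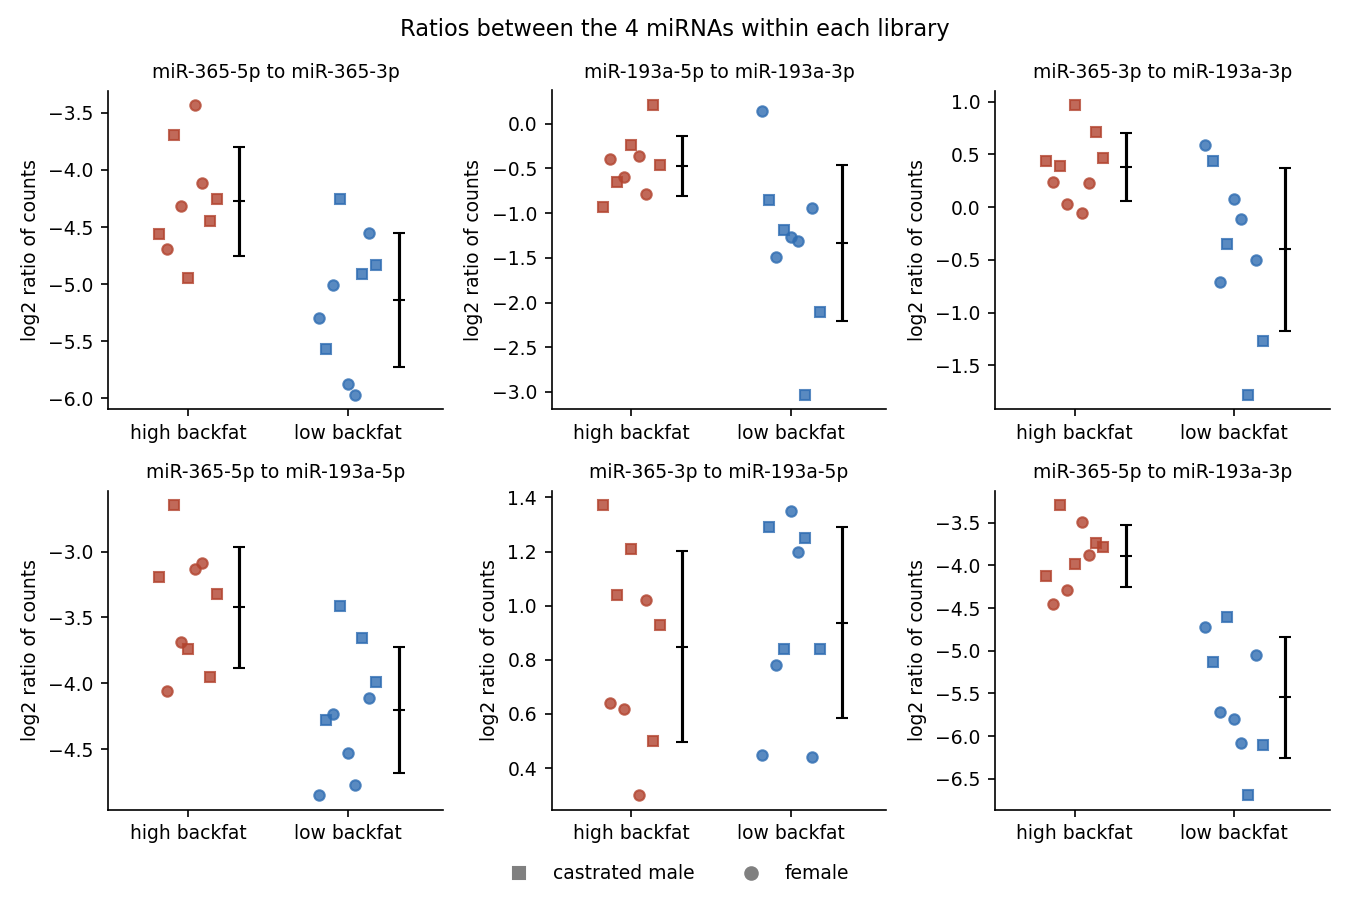
The log2 ratio of counts of each pair of the 4 miRNAs in every library, by backfat class, with castrated males as squares and females as circles; black bars give the mean and SD of 9 libraries. The classes do not overlap for miR-365-5p to miR-193a-3p, where the difference is 1.65, and overlap in the other 5 panels.

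Each miRNA was sequenced as a family of forms that differ at their ends or by a mismatch. miR-193a-3p and miR-365-3p were mostly the annotated sequence: exact matches held a median of 75.5% and 68.2% of their counts over the 18 libraries. The annotated 5′ start held 100% of the counts of both miR-193a arms and a median of 99.9% of those of miR-365-3p. Forms at the annotated start with a changed base in the seed held 2.87% of miR-193a-3p, 0.794% of miR-193a-5p and 1.99% of miR-365-3p over all libraries. miR-365-5p was different, with a median of 45.9% at the annotated start. Its most counted form began 1 base further in, which moves the seed by 1 base, and is set here under the annotated form with each seed in capitals.
annotated form: gAGGGACTttcaggggcagctgt
shifted form: aGGGACTTtcaggggcagctgtg
The shifted form held 1723 counts over all libraries, 37.2% of miR-365-5p, and the annotated form 1235. Both were above 0 in every library, and the shifted form was the larger in 13 of 18. The mean log2 ratio of shifted to annotated was 0.67 ± 0.66 for high and -0.02 ± 0.62 for low backfat (SD, n = 9 per class). The exact permutation p of 0.036 belongs to a test chosen after the values were seen. Over all forms of miR-365-5p, the annotated start held 44.8% ± 6.71 with high and 47.9% ± 7.96 with low backfat (exact permutation p = 0.383). The shifted form alone held 38.4% ± 7.14 and 30.03% ± 9.79 (exact permutation p = 0.0564, adjusted p = 0.386 over the form shares of all miRNAs). In the edgeR test of single forms, where 15 of 7330 entries, 0.205%, passed, the shifted form had a log2 fold change of 1.47 ± 0.39 (adjusted p = 0.138) and the annotated form 0.82 (adjusted p = 0.283). The 4 miRNAs had 72 of these entries, which stand for 54 distinct forms because each miR-365-3p form is listed under both hairpins. None of the 54 passed in edgeR, with 10 at an unadjusted p under 0.05, and 1 did in DESeq2. Over all 7330 entries, 684 were at an unadjusted p under 0.05 in edgeR. DESeq2 called 140 of the 7330 higher and 118 lower.

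The share of a shorter 3′ form of miR-193a-5p differed between the classes. Shares are taken over the listed counts, and forms read fewer than 10 times in a library appear to be listed at 0. A form of 20 bases, which ends 2 bases before the annotated end, made up a smaller share of miR-193a-5p in high backfat in every library, as shown beside the annotated form.
annotated form: tGGGTCTTtgcgggcgagatga
20-base form: tGGGTCTTtgcgggcgagat
The 20-base form held 5.69% to 7.92% of miR-193a-5p with high backfat (median 7.18%) and 8.09% to 9.83% with low backfat (median 8.72%). The means were 7.08% ± 0.66 and 8.77% ± 0.537 (SD, n = 9 per class), and the classes did not overlap. The level of the form itself was 12.2 ± 4.82 and 11.9 ± 2.41 CPM, with a log2 fold change of 0.06 ± 0.19 (SE, edgeR adjusted p = 0.991). The highest high library rested on 294 counts of the form (95% Clopper-Pearson interval 7.07% to 8.84%) and the lowest low library on 246 (7.15% to 9.12%), so single libraries near the boundary cannot be told apart by their counts. The difference of -1.69 percentage points gave an exact permutation p of 4.11e-05, the smallest possible, and an adjusted p of 0.029 over the 3523 forms of all tested miRNAs that were above 0 in every library. Of these, 24 forms of 17 miRNAs passed, 0.681%. The difference was -2.37 points in castrated males and -0.97 in females (exact permutation p = 0.00794 each, the smallest possible), and -0.83, -1.77, -1.71 and -2.37 points in the 4 runs of library codes. Without any 1 of low replicates 3, 6 and 9 the adjusted p was 0.0543, and with the AC485 to AC488 libraries left out it was 0.153.

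**Figure D4:**
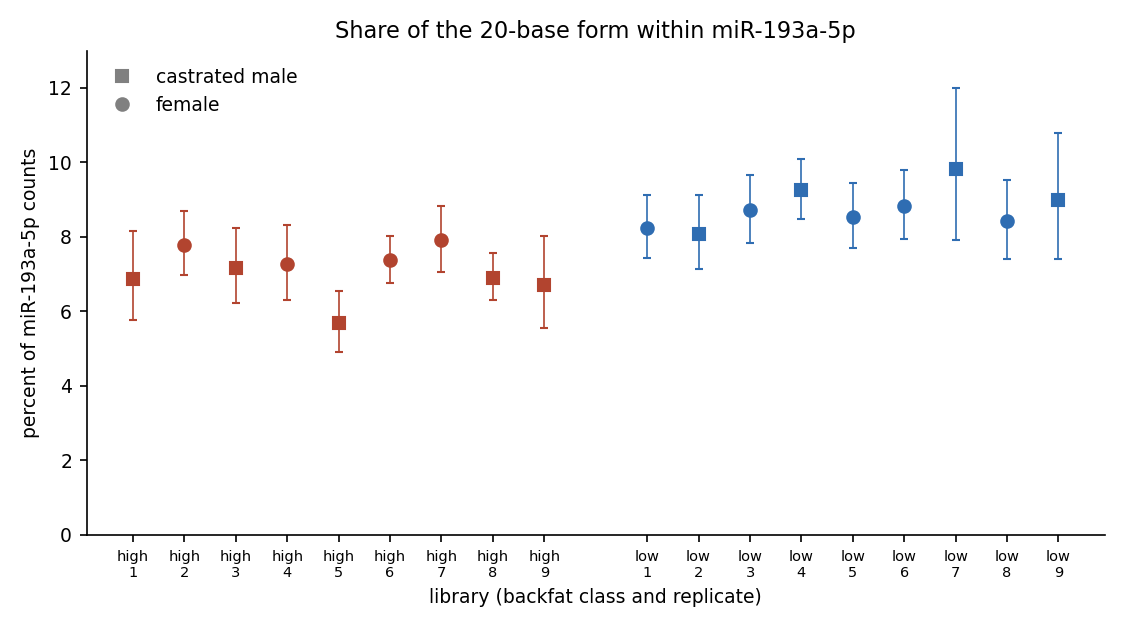
Share of the 20-base form in the counts of miR-193a-5p in each library, with castrated males as squares and females as circles; bars are 95% Clopper-Pearson intervals, which cover counting error only. The 9 high libraries lie between 5.69% and 7.92%, and the 9 low libraries between 8.09% and 9.83%.

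Of the other 34 forms of the 4 miRNAs in that test, 0 passed, with the exact permutation test over all 3523 forms. The nearest was a form of miR-365-3p with the substitution A11G, counted from the 5′ end of the annotated sequence, shown with the changed base in capitals.
A11G form of miR-365-3p: taatgcccctGaaaatccttat
It held 2.05% ± 0.225 of miR-365-3p with high and 2.59% ± 0.287 with low backfat (SD, n = 9 per class, exact permutation p = 0.000452, adjusted p = 0.0531). It was present in all 18 libraries at 1.67% to 2.97%. A form of miR-193a-5p with A22T, at its last base, held 9.25% ± 1.33 and 7.501% ± 0.95 (adjusted p = 0.139). In contrast, A10C in miR-193a-3p was listed at 0 in 10 libraries and reached 5.13% of miR-193a-3p in another. A count table cannot tell a sequencing error, an edited base and an added base apart. By broad class, forms with a mismatch held 23.1% ± 1.97 of miR-193a-5p with high and 20.03% ± 2.26 with low backfat (SD, n = 9 per class, exact permutation p = 0.00683). This was the lowest p of 14 such shares of the 4 miRNAs, and none of the 14 passed after adjustment over them. The lowest values, 16.4% and 16.5%, were those of low replicates 7 and 9, with 865 and 1167 counts of miR-193a-5p.

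Correlations across the 18 libraries were computed for the 6 pairs on log2 CPM, with 100000 permutations, and none passed after adjustment over the 6. miR-365-5p with miR-365-3p gave Pearson r = 0.26 (permutation p = 0.29) and Spearman rho = 0.25 (permutation p = 0.316). The abundant arms miR-365-3p and miR-193a-3p gave r = -0.32 and rho = -0.29 (permutation p = 0.202 and 0.235), and r = -0.05 without low replicates 7 and 9. miR-365-5p and miR-193a-3p gave r = -0.31 and rho = -0.35 (permutation p = 0.212 and 0.158), and r = -0.20 without the same 2 libraries. Within the high class this pair gave r = 0.72 (permutation p = 0.0306, adjusted p = 0.184 over the 6). Within the low class it gave r = -0.006 (permutation p = 0.987). The arms of miR-193a gave r = -0.54 and rho = -0.52 (permutation p = 0.0236 and 0.027, adjusted p = 0.102 and 0.162 over the 6), a relation that rests on low replicates 7 and 9: without them r was -0.20. Within the high class alone, the pair of miR-193a arms gave r = 0.37 and within the low class -0.80 (exact permutation p = 0.321 and 0.0146). miR-365-5p with miR-193a-5p gave r = 0.50 and rho = 0.37 (permutation p = 0.034 and 0.125), and r = 0.44 without high replicate 6 and low replicate 1. miR-365-3p with miR-193a-5p gave r = 0.43 and rho = 0.40 (permutation p = 0.0757 and 0.1). Without the AC485 to AC488 libraries, all 6 values of r lay between -0.22 and 0.39.

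miRNAs of like pattern were sought among the other tested miRNAs by Spearman's rho with each member over the 18 libraries, as a description. miR-365-5p was most like miR-132 (rho = 0.78), miR-1249 (0.72) and miR-1306-3p (0.72), followed by miR-139-3p and miR-7137-3p (0.64 each), and most opposite to miR-23a (-0.86), let-7c (-0.80) and miR-181c (-0.75). miR-193a-3p was most like miR-4334-3p (0.81), miR-339 (0.80), miR-196b-3p (0.71), miR-214 and miR-152 (0.67 each), and most opposite to miR-1839-5p (-0.77), miR-221-5p (-0.68) and miR-146b (-0.67). miR-193a-5p was most like miR-30c-1-3p (0.79), miR-362 (0.68), miR-28-3p (0.67), miR-30c-5p (0.65) and miR-1343 (0.63), and most opposite to miR-152 (-0.75), miR-30b-5p (-0.70) and miR-19a (-0.70). miR-365-3p was most like miR-186 (0.74), let-7e (0.63), miR-28-3p (0.60), miR-219 (0.59) and miR-1468 (0.58), and most opposite to miR-127 (-0.66), miR-136 (-0.65) and miR-874 (-0.64). The 2 miR-193a arms thus stood on opposite sides of miR-152. Between the 4 miRNAs themselves the highest rho was 0.40, that of miR-365-3p with miR-193a-5p, below every value given here for the most alike.

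The other miRNAs known to promote brown or beige fat had 14 arms tested. Between the classes 8 had positive and 6 negative log2 fold changes, from -1.01 to 0.34, with a median of 0.02 beside -0.03 over all 221 miRNAs. None of the 14 passed in edgeR, with 1 at an unadjusted p under 0.05 beside 54 of all 221. miR-378, the most abundant of the list at 6878 CPM and tied to brown fat expansion, had -0.06 ± 0.12 (SE, edgeR adjusted p = 0.778). In castrated males none of the 14 passed either, with 2 at an unadjusted p under 0.05 beside 49 of all 221. The summed level of the list, its 4 members from the miR-193a and miR-365 hairpins included, was 8652 to 11793 CPM in the high class and 9280 to 12756 CPM in the low class. Of 7 tested arms known to restrain brown fat, 6 had negative values and 0 passed between the classes. miR-27b-3p, the most abundant at 47789 CPM, had -0.12 ± 0.12 (adjusted p = 0.554). The same 7 arms went both ways in castrated males, 3 positive and 4 negative, with a median of -0.06. Only 2 of them fell past the threshold there. miR-133a-3p, a repressor of the brown fat regulator Prdm16 and a marker of muscle, had -2.14 ± 0.39 in castrated males (edgeR adjusted p = 0.00423), where miR-133b, with which it shares reads, fell too (-2.93 ± 0.54). Without the AC485 to AC488 libraries the values were -1.67 and -2.60, neither past the threshold (adjusted p = 0.154 each).

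Markers of other cell types were set beside miR-193a-3p. The 4 tested skeletal muscle miRNAs (miR-1, miR-133a-3p, miR-133b and miR-499-5p) all had negative log2 fold changes between the classes, with a median of -1.24, and 0 passed. In castrated males, whose summed level is given above, miR-133a-3p and miR-133b passed the threshold. miR-1 and miR-499-5p did not (edgeR adjusted p = 0.194 and 0.494). In females the sums were 70.5 to 130 CPM and 78.9 to 194 CPM. Of 5 fibroblast miRNAs all were negative between the classes, of which miR-199a-3p (-0.50 ± 0.13) and its other arm miR-199a-5p (-0.38 ± 0.09) passed the test by a small margin (edgeR adjusted p = 0.0486 each). Neither passed with DESeq2 size factors, without a filter, with limma or with age as a term (adjusted p from 0.0511 to 0.167), nor without the AC485 to AC488 libraries (-0.44 and -0.32, adjusted p = 0.247 and 0.23). Both passed with DESeq2's Wald test (adjusted p = 0.0124 and 0.00614), and leaving out 1 library ended the call in 13 of 18 fits for miR-199a-3p and in 11 for miR-199a-5p. The summed level of the 5 was 10337 to 19515 CPM in the high and 17570 to 25860 CPM in the low class. None of the 5 passed within castrated males or within females. miR-214 of this list, with -0.28 ± 0.13 (adjusted p = 0.187), is also among the 5 miRNAs most like miR-193a-3p. The red blood cell list (4 miRNAs), the white blood cell list (3) and the endothelial list (2) had 0 members past the threshold in either class comparison, with medians of -0.06, 0.03 and 0.00 between the classes. The red blood cell miRNAs went both ways there, 2 positive and 2 negative, from -0.35 for miR-451 to 0.47 for miR-486 (edgeR adjusted p = 0.407 and 0.169). miR-205, the only epithelial marker tested, had a log2 fold change of -1.23 and the liver miRNA miR-122 one of -0.76, neither past the threshold. The part of these cell types in the values of the 4 miRNAs was not tested.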

How the data were processed

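Per the labels' protocols, Trizol RNA was made into libraries with a TruSeq Small RNA kit and read on an Illumina GAII as single reads of 100 bases. The authors deposited raw counts for each sequence form of each mature miRNA under each hairpin precursor, and a normalised signal, the deposited count divided by 1 size factor per library (0.464 to 1.93, found by dividing the tables). Per the submitters' processing notes, the tools were Bowtie 0.12.7, HTSeq and DESeq2 1.4.5 and the build Sscrofa10.2, with no roles given. Files and RefSeq differ in build, so no coordinates are given. The tables hold 2 columns that match no sample and were not used.

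Forms were summed per miRNA with each sequence counted once. edgeR 4.0.16 (R 4.3.3) used filterByExpr with a minimum count of 10, TMM, library sizes over distinct sequences and Benjamini-Hochberg adjustment over all features. The class fit had sex as a term, and contrasts within sexes came from a fit of 4 cells. Alternatives were DESeq2 1.42.0 and limma 3.58.1, the latter on log2 of the deposited normalised signal plus 1. Other tests used NumPy 2.4.6 and SciPy 1.17.1. Replicate numbers are names only, given in accession order, and each library had its own animal number. Ratios were to be adjusted over the ratios of the members alone; adjustment over all pairs, the ratios with miR-193a-5p, the 43 hairpins, the tests of single form shares, the 2 starts of miR-365-5p and the alternatives for miR-133 and miR-199a were added after the data were seen. The edgeR fit was tested on simulated data. The members and the miRNA lists were chosen with earlier results of these data known, so their direction is no independent support. Named miRNAs were the members, the 5 most alike and 3 most opposite of each, list members past the threshold or most abundant, and leading forms; others were chosen after their values were seen.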

Additional observations from a re-analysis of the deposited data

Results flagged for a closer look

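In low replicate 7, a castrated male of the run AC485 to AC488, miR-193a-3p stood at 824 CPM, far from the next low library at 424 CPM: the gap took up 0.633 of the range of its class, above the critical value of 0.493 for 9 samples. In high replicate 6, a female, miR-193a-5p stood at 257 CPM with the next high library at 192 CPM, a gap of 0.518 of the range. Levels of the 4 miRNAs and both arm ratios were searched in both classes, 12 groups in all, and chance flags about 1 in 20 groups.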

How the results depend on the processing

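Limits: the scarce miR-365-5p rests on 68 to 752 counts per library, forms under 10 reads appear to be listed at 0, and runs of library codes hold few animals of each class. No paired analysis was possible because the labels give each animal its own number and no pairing. Between the classes, where 8 miRNAs passed, 1 passed with DESeq2 size factors, 1 without a filter, 22 with DESeq2's Wald test, 0 with limma, 0 with age as a term, 0 when the AC485 to AC488 libraries (the 4 libraries) were left out, 3 with exact and length forms only, and 0 to 13 when 1 library was left out. miR-365-5p missed the threshold with limma (log2 fold change 1.11), age (1.10) and without the 4 libraries (1.07), and was 0.85 to 1.21 without 1 library. That of miR-193a-3p passed with DESeq2's Wald test (-0.69) and was -0.80 to -0.45 without 1 library. Within castrated males 5 miRNAs passed with age as a term, 5 with castrated males fitted alone, 0 without the 4 libraries and 2 to 14 without 1 library. There miR-193a-3p did not pass with limma (-0.98), age (-1.08), the run of library codes (-0.87), all listings summed (-1.01), castrated males alone (-1.07) or without the 4 libraries (-0.44), and was -1.26 to -0.62 without 1 library. The difference between the sexes had 3 calls with DESeq2, 1 with only forms above 0 in all libraries, and 0 to 3 without 1 library. Of single forms 2 passed with DESeq2 size factors, 56 at a mean of at least 10 CPM, 258 with DESeq2's Wald test and 0 without the 4 libraries. Signs of values that did not pass turned for miR-365-3p between the classes without the 4 libraries (-0.047), for miR-365-3p in females with limma (0.15, where the median of all miRNAs was 0.19), all listings summed (0.044), exact and length forms only (5.9e-05) and without 1 library (-0.19 to 0.015), for miR-193a-5p in females (-0.11 to 0.31 without 1 library), for miR-193a-3p between the sexes without the 4 libraries (-0.15) and without 1 library (-0.041 to 0.33), and for the difference of miR-365-5p between the sexes (-0.59 to 0.092 without 1 library). Of the 6 ratios 1 passed, and 0 in castrated males alone, 0 in females alone and 0 without the 4 libraries, with 0 to 2 without 1 library. The ratio miR-365-5p to miR-193a-3p kept its size there (1.85, 1.44 and 1.43; 1.51 to 1.77 without 1 library) with fewer splits to test it; its arm counterparts ran from 0.76 to 0.98 for miR-365 and 0.66 to 1.06 for miR-193a without 1 library. The share of the 20-base form differed by -2.37 points in castrated males, -0.97 in females and -1.49 without the 4 libraries, none past the adjusted threshold, and by -1.80 to -1.52 without 1 library. Within each sex its exact permutation p was already the smallest possible (0.00794), so the adjusted threshold could hardly be reached there. The 14 broad shares had 0 to 2 calls without 1 library. The causes of these changes were not tested.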
